A study of Mus musculus with 10 samples.

Results

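The glucocorticoid receptor gene Nr3c1 and 8 genes of glucocorticoid signalling (Hsd11b1, Hsd11b2, Fkbp5, Dusp1, Per1, Zbtb16, Klf9 and Sgk1) were examined for CpG methylation in mouse lung. Their members are the windows of 1000 bp that overlap the RefSeq span of one of the 9 genes on GRCm38 or the 5 kb on either side, which gave 364 of the 446336 windows in the series. The libraries came from lung DNA of 10 female BALB/c mice, bought at 8 weeks of age: 3 saline mice, 3 OVA-induced mice and 4 DSE-treated mice. OVA-induced mice were sensitized with 50 µg of ovalbumin (OVA) in alum by the intraperitoneal route on Days 0 and 7 and then challenged intranasally with 25 µg for 4 days from Day 12. DSE-treated mice had the same OVA protocol and were also given 200 mg/kg of an ethanol extract of Descurainia sophia seeds by mouth on Days 9 to 15, for 7 days. The sample labels call this group Herb and it was taken as DSE because the study describes no other herb. The OVA protocol is thus shared by both asthmatic groups, and OVA vs. saline, DSE vs. OVA and DSE vs. saline each share mice with the other comparisons.

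Glucocorticoids diffuse into cells and bind the receptor, which leaves its heat-shock protein complex, enters the nucleus and binds palindromic DNA sites called glucocorticoid response elements (GREs). Among its best-known targets are genes that damp inflammatory signalling, and inhaled glucocorticoids are the main controller treatment of asthma. CpG-dense start sites are usually unmethylated in all tissues, whereas methylation of CpG-poor sequence inside and around genes varies between cell types.

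Methylation is the percentage of CpG calls read as methylated in a window, used where a mouse had at least 20 calls. Windows were called hyper or hypo methylated at a Benjamini-Hochberg adjusted p under 0.01 in a likelihood ratio test of the pooled calls and a pooled difference of at least 10 percentage points. That test takes the calls as independent and ignores how mice of a group vary, so the adjusted p of limma on the M-values of the single mice (threshold 0.05) is given beside it. Differences between groups are pooled differences in percentage points, and means are over mice. Per mouse, the median depth over the member windows was 396 to 608 calls. At 400 calls and 50% methylation the 95% Wilson interval is 45.1% to 54.9%, which covers counting error only. Neighbouring windows share 500 bp, so some adjacent pairs hold the same CpGs and count as 1 measurement.

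The sequences at the 9 loci that the results refer to are shown first, on the strand of the gene (GRCm38.p6). The RefSeq promoter table used here held 300 bases at each of 12 start sites of 6 members, Dusp1, Fkbp5, Hsd11b1, Klf9, Per1 and Sgk1, and the 250 bases before the start are printed. Promoters of Nr3c1, Hsd11b2 and Zbtb16 were not in it. Those of Dusp1 (chr17:26508473-26508722) and of one Sgk1 start site (chr10:21993640-21993889) are given as examples whose windows had almost no methylation in any mouse. The start-site windows of Fkbp5, Klf9 and Per1 were low as well, and their promoters are not printed. Capitals mark CpGs.
Dusp1 promoter: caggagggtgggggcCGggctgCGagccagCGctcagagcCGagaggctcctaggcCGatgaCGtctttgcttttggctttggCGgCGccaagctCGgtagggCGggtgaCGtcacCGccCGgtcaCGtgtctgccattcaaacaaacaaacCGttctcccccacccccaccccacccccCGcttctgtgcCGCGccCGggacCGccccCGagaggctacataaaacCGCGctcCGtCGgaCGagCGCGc
Sgk1 promoter: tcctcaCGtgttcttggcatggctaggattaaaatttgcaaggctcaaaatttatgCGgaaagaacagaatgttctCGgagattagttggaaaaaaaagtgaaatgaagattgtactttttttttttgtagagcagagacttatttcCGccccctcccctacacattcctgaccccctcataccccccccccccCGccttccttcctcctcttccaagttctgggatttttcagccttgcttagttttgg

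Stretches of 300 bases outside annotated exons were taken from hyper methylated windows, at the place with the most CpGs. For Dusp1, Fkbp5, Zbtb16 and Klf9 this was the window called in both asthmatic groups with the largest OVA vs. saline difference. At Sgk1 that window was hypo methylated and is not printed, and no stretch of Nr3c1 is printed. The stretches come from downstream of Dusp1 (chr17:26504449-26504748, minus strand), an Fkbp5 intron (chr17:28472501-28472800, minus strand), a Zbtb16 intron (chr9:48674690-48674989, minus strand), a Klf9 intron (chr19:23162679-23162978, plus strand), and from the Sgk1 window hyper methylated in DSE vs. OVA (chr10:21991172-21991471, plus strand). Each holds 4 to 8 CpGs in capitals, against 28 in the 250 bases of the Dusp1 promoter and 5 in those of the Sgk1 promoter.
Dusp1 downstream: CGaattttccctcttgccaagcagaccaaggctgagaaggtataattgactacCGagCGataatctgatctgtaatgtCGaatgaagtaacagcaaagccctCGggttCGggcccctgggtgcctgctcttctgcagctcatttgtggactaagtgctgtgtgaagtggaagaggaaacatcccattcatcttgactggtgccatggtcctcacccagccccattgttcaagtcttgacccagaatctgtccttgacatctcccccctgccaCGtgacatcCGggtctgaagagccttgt
Fkbp5 intron: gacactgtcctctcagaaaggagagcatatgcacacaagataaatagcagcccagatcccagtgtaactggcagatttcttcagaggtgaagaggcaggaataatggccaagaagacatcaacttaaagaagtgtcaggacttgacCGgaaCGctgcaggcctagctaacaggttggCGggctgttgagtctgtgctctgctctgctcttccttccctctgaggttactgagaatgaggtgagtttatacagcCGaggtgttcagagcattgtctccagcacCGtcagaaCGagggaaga
Zbtb16 intron: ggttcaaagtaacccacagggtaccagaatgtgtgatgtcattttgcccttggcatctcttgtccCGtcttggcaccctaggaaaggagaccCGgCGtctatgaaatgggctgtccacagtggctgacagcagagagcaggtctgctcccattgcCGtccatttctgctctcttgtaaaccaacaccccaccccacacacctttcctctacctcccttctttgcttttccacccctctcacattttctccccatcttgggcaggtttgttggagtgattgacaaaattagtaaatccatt
Klf9 intron: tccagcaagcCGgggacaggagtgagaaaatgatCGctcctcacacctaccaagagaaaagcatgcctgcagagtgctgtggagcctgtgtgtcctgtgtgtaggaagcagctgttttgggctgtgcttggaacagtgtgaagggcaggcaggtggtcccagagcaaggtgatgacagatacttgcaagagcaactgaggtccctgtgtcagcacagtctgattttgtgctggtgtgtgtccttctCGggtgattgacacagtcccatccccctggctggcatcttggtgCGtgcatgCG
Sgk1 upstream: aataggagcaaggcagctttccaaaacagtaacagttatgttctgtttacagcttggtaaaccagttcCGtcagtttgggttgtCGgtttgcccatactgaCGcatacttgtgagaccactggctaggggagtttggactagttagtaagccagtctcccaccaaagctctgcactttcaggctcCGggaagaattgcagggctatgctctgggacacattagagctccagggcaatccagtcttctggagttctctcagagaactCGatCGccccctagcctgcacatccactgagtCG

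GRE-like sites were searched in a form that reads the same on both strands, as GNACA and TGTNC with 3 bases between them (13 letters), and in the full palindromic form with AGAACA and TGTTCT (15 letters), which includes the shorter form. Of the member windows, 24 of 364 (6.59%) held the 13-letter form, against 1.82% of all windows, and 3 (0.824%) held the 15-letter form, against 0.0231%. The 9 genes were chosen as known receptor targets or regulators, so these shares only describe the choice. Of the 12 promoters, taken over all 300 bases, 1 held the 13-letter form, against 0.475% of 32851 RefSeq promoters of the same length. A match is a description of the letters and not a binding site. The 2 sites of 15 letters and 4 of 13 letters follow with the motif in capitals: Sgk1 chr10:21993701-21993715, Fkbp5 chr17:28420321-28420335, Per1 chr11:69097077-69097089 and chr11:69099417-69099429, Dusp1 chr17:26509487-26509499 and Zbtb16 chr9:48740273-48740285.
Sgk1 promoter site: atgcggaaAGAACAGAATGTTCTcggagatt
Fkbp5 intron site: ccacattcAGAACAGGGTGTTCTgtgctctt
Per1 first site: agccaagaGAACACGATGTTCcctagtgc
Per1 second site: tcaggctgGAACATCCTGTTCtcagcgct
Dusp1 upstream site: tgtgatgaGTACAGTTTGTCCcacagagt
Zbtb16 intron site: acttgtggGTACAGTATGTACagtgtgtg

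In OVA vs. saline, 29 of 360 member windows tested (8.06%) were hyper methylated and 13 (3.61%) hypo methylated, against 4.75% and 2.56% of all windows. These windows form 15 hyper and 8 hypo methylated regions. In DSE vs. saline, 27 of 361 (7.48%) were hyper and 14 (3.88%) hypo methylated, against 4.95% and 3.07% of all windows. In DSE vs. OVA only 1 of 359 (0.279%) was hyper and 3 (0.836%) were hypo methylated, against 0.898% and 0.725% of all windows. The hypo methylated calls depended on single mice. Their number was 1 without OVA replicate 1, OVA replicate 2 or DSE replicate 1, and 6 without OVA replicate 3. The hyper methylated window stayed called with each mouse left out, at 11.6 to 18.6 points. Without OVA replicate 2 there were 2 hyper methylated windows. The called windows belonged to Nr3c1, Fkbp5, Dusp1, Zbtb16, Klf9 and Sgk1, and none of those tested at Hsd11b1, Hsd11b2 and Per1 was called in any comparison. The median difference over the member windows was 1.21 points in OVA vs. saline, against 0.732 over all windows, and 0.723 in DSE vs. saline, against 0.721.

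Once the spread between mice was used, the picture narrowed. No member window passed limma at an adjusted p of 0.05 in OVA vs. saline, nor did any window of the series (0%), although 99 member windows had an unadjusted limma p under 0.05. An F test that scales for overdispersion called 0 windows as well, with 94 member windows at an unadjusted p under 0.05. In DSE vs. saline, where 4 mice were treated, 25 member windows passed limma, 20 of them higher and 5 lower, against 4.59% of all windows. With the 10-point minimum as well, 15 and 4 remained. In DSE vs. OVA, 0 member windows passed limma, against 0.0894% of all windows, and 29 had an unadjusted limma p under 0.05. The F test called no member window in these comparisons either, with 99 and 18 at an unadjusted p under 0.05. The share of all windows was not computed for the unadjusted counts or for limma with the 10-point minimum. These counts therefore do not show whether the member windows differ from the rest of the series.

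The ranges of the mice gave a similar order. In OVA vs. saline, all OVA-induced mice were above all saline mice in 95 of 351 member windows (27.1%, against 18.0% of all windows) and below them in 37 (10.5%, against 9.01%). In DSE vs. saline this was so for 75 (21.1%, against 16.3%) and 27 (7.61%, against 7.83%) of 355 windows. The OVA-induced and DSE-treated mice were apart in 10 windows in each direction (2.84%, against 5.65% higher and 4.59% lower).

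The calls were also counted by CpG density and starting level. Since a call needs a difference of at least 10 points, windows near 0% can hardly be called lower, and small rises there are not called. The place of the calls is thus partly set by this minimum. The 30 member windows with 40 or more CpGs had a median of 1.34% methylation in saline mice. None of them was called in any comparison. Of such windows in the series, 0.785%, 0.378% and 1.16% were called in OVA vs. saline, DSE vs. OVA and DSE vs. saline. At these shares, 0 calls among 30 windows does not set the members apart. All 42 calls of OVA vs. saline lay among the 224 tested windows with a saline mean of 10% to 80%, of which 18.8% were called, against 11.0% of all such windows. By position, 14 of 193 intron windows were hyper and 10 hypo methylated, against 5.99% and 3.21% of all intron windows. Of 37 windows overlapping exons, 9 were hyper and 0 hypo methylated, against 4.64% and 2.26%. Upstream of the genes 2 were hyper and 2 hypo methylated of 27, and downstream 4 and 0 of 25. For these 2 positions the share of all windows was not computed, so the counts only describe the members. Of 78 promoter windows (within 1 kb of a start site), 1 was called. The single promoter call was hypo methylated and lay at Nr3c1. Among all promoter windows of the series, 2.89% were hyper and 1.73% hypo methylated in this comparison.

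**Figure D1:**
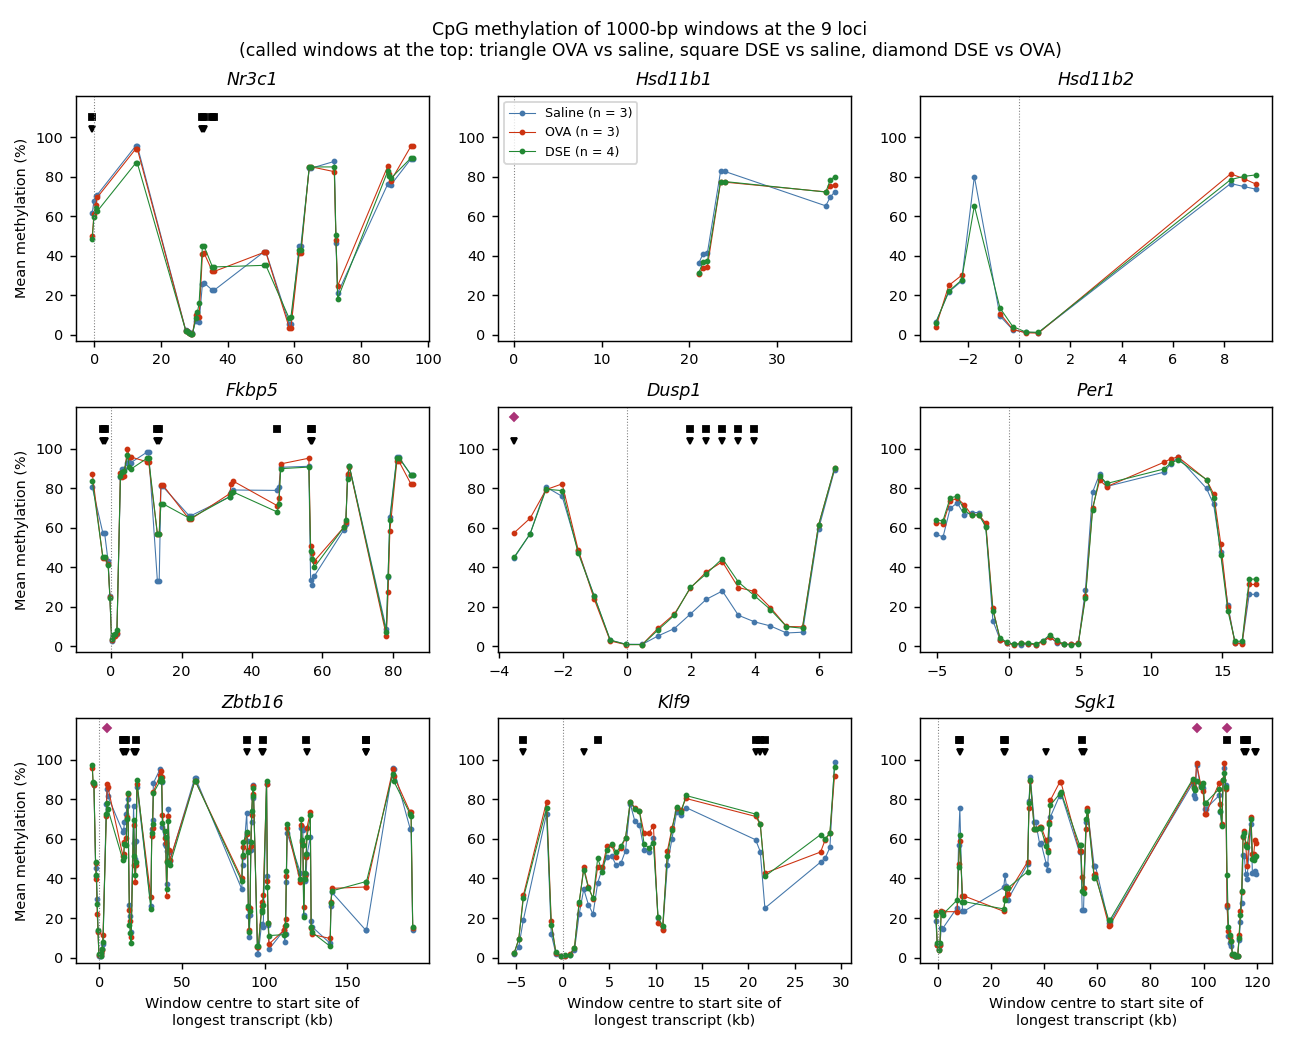
Mean methylation (%) of each 1000-bp window of the 9 genes against the distance (kb) of its centre from the start site of the longest RefSeq transcript, with 1 line per group (saline n = 3, OVA n = 3, DSE n = 4). Triangles, squares and diamonds at the top mark windows called in OVA vs. saline, DSE vs. saline and DSE vs. OVA. The calls, which need a difference of at least 10 points, lie away from the low-methylation start sites. The saline line stands apart at Dusp1 and Klf9.

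Averaged over a gene's windows in each mouse, methylation at Dusp1 and Klf9 was higher after OVA than after saline. These were 2 of the 9 members at an adjusted p under 0.05 in limma over all genes, a threshold that 12.4% of 32864 genes passed. In DSE vs. saline 3 of the 9 passed, Dusp1, Klf9 and Hsd11b2, against 18.2% of genes. None of the 9 passed in DSE vs. OVA, with 0 at an unadjusted limma p under 0.05, against 0.0183% of genes. These counts moved when calls were pooled over a gene's windows, which gives deep windows more weight. With pooled calls, Nr3c1, Hsd11b1 and Fkbp5 were higher in DSE vs. OVA by 4.52, 4.54 and 4.23 points (limma adjusted p = 0.0108, 0.0106 and 0.00672), where 22.1% of genes passed. Averaged over windows, the same differences were −0.672, 1.71 and −0.414 points (limma adjusted p = 0.908, 0.732 and 0.934). The sign for Nr3c1 and Fkbp5 thus depended on the weighting. Pooling gave 6 members in DSE vs. saline, Hsd11b2, Fkbp5, Dusp1, Per1, Klf9 and Sgk1 (32.9% of genes), and for OVA vs. saline Hsd11b1 alone, lower by 4.36 points on the pooled scale (limma adjusted p = 0.0327, 9.08% of genes).

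The ranges of the gene means gave a wider set. At 5 of the 9 members, Hsd11b2, Dusp1, Per1, Klf9 and Sgk1, all 7 asthmatic mice lay above all saline mice, where 26.6% of genes had all OVA-induced mice and 25% all DSE-treated mice above the saline mice.

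Dusp1 encodes a phosphatase that switches off MAP kinases and is induced by glucocorticoids. Its gene mean over 21 windows was 30.4%, 28.8% and 29.0% in the saline mice, 34.1%, 35.9% and 36.1% in the OVA-induced mice, and 32.3%, 35.4%, 34.2% and 35.0% in the DSE-treated mice. All 7 asthmatic mice lay above all saline mice. The difference was 5.93 ± 0.965 points (SE) in OVA vs. saline (limma adjusted p = 0.00925) and 4.77 ± 0.903 in DSE vs. saline (limma adjusted p = 0.0102), and the asthmatic groups overlapped with each other (−1.17 ± 0.903, limma adjusted p = 0.790). Both calls held with each mouse left out. With the calls of the windows pooled instead of averaged, the OVA vs. saline difference was 3.74 and its limma adjusted p 0.0513.

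Klf9 is a Krüppel-like transcription factor induced by glucocorticoids. Its mean over 40 windows was 39.5% to 40.2% in saline mice, 43.7%, 46.3% and 46.6% in OVA-induced mice, and 42.2%, 47.8%, 44.5% and 46.3% in DSE-treated mice. Again the saline mice did not overlap with either asthmatic group, which overlapped with each other. Klf9 was 5.64 ± 1.36 points higher in OVA vs. saline (limma adjusted p = 0.0288) and 5.31 ± 1.27 higher in DSE vs. saline (limma adjusted p = 0.0221). The first call was lost without any one of the 3 saline mice, OVA replicate 2 or OVA replicate 3 (limma adjusted p 0.0599 to 0.0984), the second without saline replicate 1, saline replicate 2 or DSE replicate 4 (0.0577 to 0.0747). With pooled calls the OVA vs. saline difference was 3.16 (limma adjusted p = 0.229).

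Hsd11b2, the enzyme that inactivates glucocorticoids, had a mean of 29.4% ± 0.621 (SD, n = 3) in saline mice, which compares with 31.0% ± 0.442 (n = 3) for OVA-induced and 31.5% ± 0.575 (n = 4) for DSE-treated mice. DSE vs. saline differed by 2.09 ± 0.616 points (limma adjusted p = 0.0431). This call did not survive leaving out any saline mouse, OVA replicates 2 or 3, or DSE replicates 2, 3 or 4 (limma adjusted p 0.0541 to 0.145), without the flanks the difference was 0.642 (limma adjusted p = 0.378), and in windows that do not overlap it was 1.40 (limma adjusted p = 0.113). Pooled calls gave 3.58. Sgk1 was 2.67 ± 0.868 and 2.37 ± 0.812 points above saline in the OVA-induced and DSE-treated mice, with no overlap, and did not pass (limma adjusted p = 0.0702 and 0.0679). Nr3c1, Hsd11b1, Fkbp5, Per1 and Zbtb16 did not pass in any comparison and had gene means of 44.1%, 61.3%, 60.9%, 39.3% and 46.1% in saline mice.

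**Figure D2:**
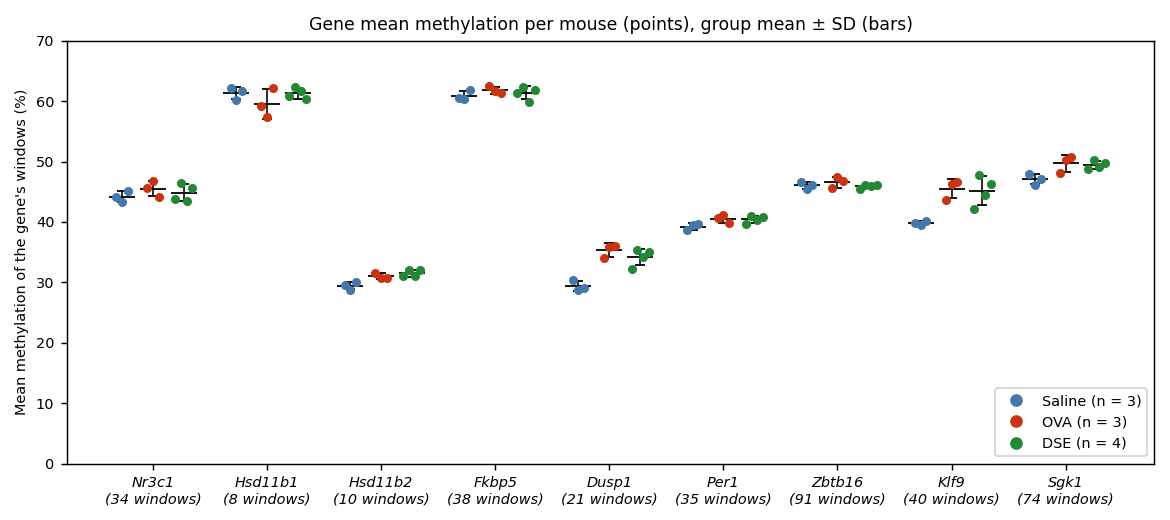
Mean methylation (%) of each gene's windows per mouse (points), with the group mean and SD (bars); the number under each name counts the windows with 20 or more calls in every mouse. The saline mice lie below all other mice at Dusp1 (28.8% to 30.4%) and Klf9 (39.5% to 40.2%), by less at Hsd11b2, Per1 and Sgk1, and the OVA and DSE mice overlap at every gene.

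The lung samples hold many cell types, and a change in their proportions and a change in methylation within a cell cannot be told apart in these libraries. Promoter methylation of leukocyte marker genes (16 of 20 genes measured) was 53.8% to 55.5% in saline, 47.0% to 51.4% in OVA-induced and 48.2% to 50.4% in DSE-treated mice. Eosinophil genes (6 of 6) had 46.5% to 49.6%, 43.0% to 45.1% and 39.8% to 44.3%. Lung epithelium genes (8 of 11) had 28.2% to 29.0%, 29.2% to 30.5% and 27.9% to 31.0%, and endothelium genes (4 of 7) had 25.5% to 28.8%, 30.9% to 33.8% and 29.1% to 30.9%. The saline mice thus stood apart from both other groups in the leukocyte, eosinophil and endothelium lists, as they did in the means of Hsd11b2, Dusp1, Per1, Klf9 and Sgk1, and the part of cell makeup in the differences at the 9 genes was not tested.

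Nr3c1, the glucocorticoid receptor, lies on chr18:39410545-39519421 (minus strand) with 14 annotated start sites, of which those in a CpG-dense cluster were almost unmethylated. The window at chr18:39491001-39492000 over one of these start sites had 2.08%, 1.76% and 2.42% in saline, 2.28%, 1.47% and 1.68% in OVA-induced and 1.28%, 2.24%, 1.17% and 2.68% in DSE-treated mice. The groups overlapped. The window nearest to the start site of the longest transcript (chr18:39519001-39520000), with 17 CpGs, was methylated at 66.7%, 67.8% and 68.3% in saline mice, 62.8%, 59.6% and 60.9% in OVA-induced and 62.1%, 60.3%, 60.6% and 55.9% in DSE-treated mice. All asthmatic mice were below all saline mice there (−6.41 points in OVA vs. saline), which is under the 10-point threshold (limma adjusted p = 0.213).

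The next window upstream, chr18:39519501-39520500, was hypo methylated in both asthmatic groups. It had 60.5%, 65.4% and 59.5% in saline, 51.9%, 49.7% and 48.0% in OVA-induced and 53.3%, 49.9%, 47.5% and 43.6% in DSE-treated mice, without overlap with saline. It fell by 11.5 points in OVA vs. saline (likelihood ratio adjusted p = 9.57e-12, limma adjusted p = 0.125) and by 12.8 in DSE vs. saline (limma adjusted p = 0.0529). Without saline replicate 2, the OVA vs. saline difference was −9.93 and no longer called.

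Inside Nr3c1, a pair of windows at chr18:39483001-39484500 that hold the same calls was higher in asthmatic mice. Saline mice had 23.6%, 24.5% and 19.3%, OVA-induced mice 33.9%, 35.4% and 26.5%, and DSE-treated mice 36.8%, 35.1%, 33.8% and 31.6%. This intronic site was hyper methylated in DSE vs. saline by 12.2 points (limma adjusted p = 0.0366) and 9.84 higher in OVA vs. saline (limma adjusted p = 0.18). The windows at chr18:39486001-39487500, which overlap an exon, had the largest difference at Nr3c1 in OVA vs. saline, 19.9 points. Single mice varied widely there, with 28.2%, 27.1% and 23.3% in saline, 46.2%, 52.6% and 25% in OVA-induced and 47.6%, 42.6%, 30.3% and 58.5% in DSE-treated mice. OVA replicate 3 lay within the saline range and the limma adjusted p was 0.283.

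Hsd11b1, which regenerates active glucocorticoid from its inert form, had 8 windows, none within 20 kb of the start site of its longest transcript. Over the start site of a shorter transcript, the window at chr1:193242001-193243000 had 37.3%, 46.1% and 39.4% in saline, 35.9%, 35.0% and 30.8% in OVA-induced and 38.0%, 30.7%, 41.7% and 36.1% in DSE-treated mice. OVA-induced mice were all below the saline mice, with a pooled difference of −7.01 points, and the limma adjusted p was 0.297. The window nearest to the longest transcript's start site, chr1:193242501-193243500, gave 49.3%, 22.2% and 36.8% in saline mice at 72 to 95 calls, a spread that covered both other groups. Hsd11b2 (chr8:105518746-105523988) was close to unmethylated around its start site. Its window at chr8:105518001-105519000 had 1.85%, 2.87% and 2.77% in saline, 2.53%, 3.09% and 2.42% in OVA-induced and 3.65%, 4.36%, 3.79% and 4.70% in DSE-treated mice. The DSE-treated mice were above all others by 1.62 points over saline (limma adjusted p = 0.0707) and 1.45 over OVA (limma adjusted p = 0.239), far under the threshold for a call.

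Fkbp5 encodes a co-chaperone that lowers the hormone binding of the receptor and is itself induced by it. Its start-site window (chr17:28485501-28486500), with 145 CpGs, had 1.70% to 3.31% in saline, 2.28% to 3.42% in OVA-induced and 1.82% to 5.88% in DSE-treated mice, and the groups overlapped. The largest difference at Fkbp5 lay 13148 to 13648 bp downstream, in the intron whose sequence is shown above. A pair of windows with the same calls (chr17:28472001-28473500) had 30.4%, 30.9% and 37.1% in saline, 59.3%, 56.4% and 54.1% in OVA-induced and 62.4%, 52.9%, 51.9% and 59.7% in DSE-treated mice. Every asthmatic mouse exceeded every saline mouse by at least the width of the saline range. The pooled difference was 23.6 points in OVA vs. saline (likelihood ratio adjusted p = 8.56e-12, limma adjusted p = 0.103) and 24.9 in DSE vs. saline (limma adjusted p = 0.0263), at 106 to 234 calls per mouse.

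Further into Fkbp5, the exon-overlapping window at chr17:28428501-28429500 had 33.4%, 27.0% and 32.4% in saline, 42.5%, 47.3% and 51.6% in OVA-induced and 39.3%, 46.6%, 45.4% and 45.4% in DSE-treated mice. It was 15.4 points higher in OVA vs. saline (limma adjusted p = 0.109) and 12.8 higher in DSE vs. saline (limma adjusted p = 0.0448). Changes in the other direction occurred as well. At chr17:28438501-28439500 saline mice had 80.5%, 78.1% and 77.8% and DSE-treated mice 69.3%, 69.4%, 65.0% and 68.0%, a fall of 10.8 points (limma adjusted p = 0.0327). OVA-induced mice had 73.7%, 67.6% and 72.0% there with a difference of −7.89 points from saline (limma adjusted p = 0.163). Without saline replicate 1 or DSE replicate 3 the DSE vs. saline difference was −9.89 or −9.94 and not called. Upstream of the gene, at chr17:28487501-28488500, methylation fell by 11.9 points in OVA vs. saline (limma adjusted p = 0.142). The intronic match to the 15-letter form lay in a window with group means of 59.0% to 60.3%, and the groups differed by less than 2 points.

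Dusp1 had the highest share of called windows among the members, 6 of 21 (28.6%) in OVA vs. saline. All 6 were hyper methylated, as were 4.75% of all windows. Its start-site window (chr17:26508001-26509000, 103 CpGs) had 0.701% to 1.23% in saline, 0.533% to 1.01% in OVA-induced and 0.619% to 1.04% in DSE-treated mice. From 1971 bp downstream of the start site to beyond the end of the gene, 5 neighbouring windows (chr17:26504001-26507000) were hyper methylated in both asthmatic groups by 12.5 to 16.7 points.

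The window at chr17:26504001-26505000, downstream of the gene, had the smallest p of any Dusp1 window in OVA vs. saline. Its values were 11.6%, 13% and 12.3% in saline, 22.7%, 27.4% and 32.9% in OVA-induced and 22.5%, 26.9%, 24.0% and 28.7% in DSE-treated mice. Means thus rose from 12.3% ± 0.706 (SD, n = 3) to 27.7% ± 5.15 (n = 3) and 25.5% ± 2.80 (n = 4), at 1319 to 1912 calls per mouse. The pooled difference was 14.9 points in OVA vs. saline (likelihood ratio adjusted p = 1.34e-74, limma adjusted p = 0.103) and 13.2 in DSE vs. saline (limma adjusted p = 0.0252). The gene model Gm34455 also overlaps this window.

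At the 3′ end of Dusp1, the window at chr17:26505001-26506000 had 30.7%, 26.3% and 26.6% in saline, 36.3%, 45.9% and 45.9% in OVA-induced and 40.8%, 47.8%, 40.6% and 47.9% in DSE-treated mice. It was 14.5 points higher in OVA vs. saline (limma adjusted p = 0.117) and 16.0 higher in DSE vs. saline (limma adjusted p = 0.0305). The windows on both sides of the run, chr17:26503501-26504500 and chr17:26506501-26507500, moved less, by 9.26 and 7.23 points in OVA vs. saline. They passed limma in DSE vs. saline as well (limma adjusted p = 0.028 and 0.0378), so that 7 of the 21 windows did. The saline mice did not overlap with either asthmatic group in any of these 7 windows. The windows were picked by limma in DSE vs. saline, which favours such a separation from saline. Neighbours among them share 500 bp, so they are not 7 separate results. Over all 21 Dusp1 windows, all OVA-induced mice were above all saline mice in 10 (47.6%, against 18.0% of all windows). All DSE-treated mice were above all saline mice in 9 (42.9%, against 16.3%).

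Upstream of Dusp1 lay the only member window called one way in OVA vs. saline and the other way in DSE vs. OVA. At chr17:26511501-26512500, saline mice had 51.8%, 47.6% and 34.3%, OVA-induced mice 64.0%, 51.5% and 56.4%, and DSE-treated mice 40.5%, 41.3%, 52.2% and 46.1%. The groups overlapped in both comparisons. The difference was 14.8 points in OVA vs. saline (likelihood ratio adjusted p = 9.2e-06, limma adjusted p = 0.271) and −13.8 in DSE vs. OVA (likelihood ratio adjusted p = 7.05e-06, limma adjusted p = 0.374). Without OVA replicate 1 neither was called (10.3 and −9.26 points), and without saline replicate 3 the first was 8.41. The window has 6 CpGs and 145 to 281 calls per mouse.

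**Figure D3:**
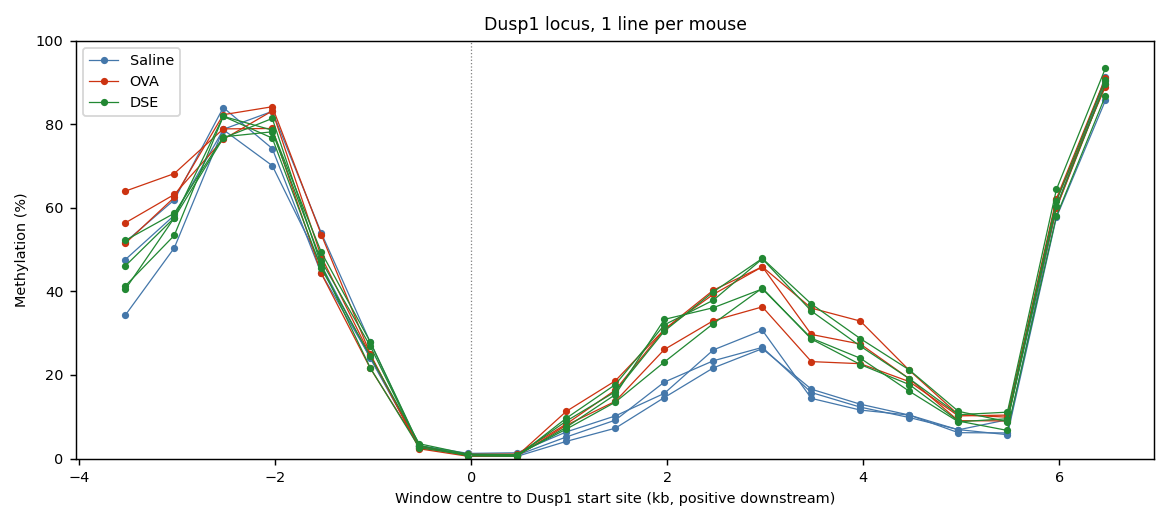
Methylation (%) of each 1000-bp window at Dusp1 against the distance (kb) of its centre from the start site, positive in the direction of transcription, with 1 line per mouse. From 2 to 4 kb downstream the 3 saline lines run below all 7 others, and at the start site all 10 lie near 0.

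Per1, a repressor of the circadian clock that glucocorticoids induce acutely, had 36 windows and 0 calls in all 3 comparisons. Its window nearest to the start site of the longest transcript (chr11:69094501-69095500) had 1.40% to 1.78% in saline, 1.30% to 1.59% in OVA-induced and 1.65% to 2.57% in DSE-treated mice. The DSE-treated mice were above the OVA-induced mice by 0.413 points (limma adjusted p = 0.610). The 2 GRE-like sites of Per1 shown above lay in windows with group means of 0.779% to 2.68% and 0.814% to 0.974%.

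Zbtb16 encodes the zinc-finger protein PLZF, which glucocorticoids induce strongly in many cells. Its start-site window (chr9:48835501-48836500) had group means of 0.811% to 1.16%. In OVA vs. saline, 5 of its 94 windows tested (5.32%) were hyper methylated, near the 4.75% of all windows. Hypo methylated were 7 (7.45%), against 2.56% of all windows. The largest rise was at chr9:48674001-48675500, where 2 windows hold the same calls, in an intron shared with the gene model Gm32280. Saline mice had 9.55%, 9.44% and 22.6%, OVA-induced mice 38.3%, 25.5% and 43.3%, and DSE-treated mice 29.8%, 44.0%, 35.2% and 44.4%. The groups did not overlap with saline, though saline replicate 3 was well above the other saline mice. The difference was 20.9 points in OVA vs. saline (limma adjusted p = 0.132) and 24.5 in DSE vs. saline (limma adjusted p = 0.0387).

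Nearer to the Zbtb16 start site, the window at chr9:48821001-48822000 was lower in asthmatic mice. It had 69.3%, 63.1% and 60.8% in saline, 52.4%, 53.8% and 51.1% in OVA-induced and 50.9%, 51.4%, 49.8% and 50.5% in DSE-treated mice, a fall of 11.9 points in OVA vs. saline (limma adjusted p = 0.138) and of 13.6 in DSE vs. saline (limma adjusted p = 0.0387). Without saline replicate 1 the OVA vs. saline difference was −9.33 and not called. Over all 9 genes, leaving out that mouse lowered the hypo methylated windows of OVA vs. saline from 13 to 7. Windows at low methylation moved too. The 2 overlapping GRE-like sites of Zbtb16, one of which is shown above, lie in chr9:48739501-48740500, with 1.5%, 1.96% and 2.08% in saline, 3.28%, 5.42% and 6.60% in OVA-induced and 5.57%, 5.12%, 5.49% and 7.84% in DSE-treated mice. The differences, 3.01 in OVA vs. saline (limma adjusted p = 0.111) and 4.24 in DSE vs. saline (limma adjusted p = 0.0252), were below the 10-point threshold, and no asthmatic mouse overlapped with saline. In DSE vs. OVA, the exon-overlapping window at chr9:48831001-48832000 fell by 10.2 points at 44 to 126 calls per mouse (limma adjusted p = 0.468), a call lost without OVA replicate 1, OVA replicate 2, DSE replicate 1 or DSE replicate 2 (−7.48 to −9.96).

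At Klf9, 5 of 40 windows tested (12.5%) were hyper and 0 hypo methylated in OVA vs. saline, against 4.75% and 2.56% of all windows. All OVA-induced mice were above all saline mice in 19 of 40 Klf9 windows (47.5%, against 18.0% of all windows). Its start-site window (chr19:23140501-23141500) had group means of 0.816% to 0.855%. The window at chr19:23143001-23144000, 2275 bp downstream of the start site and with at least 2111 calls in each mouse, had 37.0%, 31.5% and 35.4% in saline, 41.0%, 46.3% and 49.9% in OVA-induced and 38.7%, 45.1%, 43.2% and 50.6% in DSE-treated mice. It was 11.0 points higher in OVA vs. saline (limma adjusted p = 0.159), and 9.57 or 9.16 without saline replicate 2 or OVA replicate 3. The largest difference was at chr19:23162501-23163500, with 25%, 32.1% and 17.8% in saline, 44.3%, 40.7% and 43.1% in OVA-induced and 37.0%, 47.9%, 44.0% and 35.7% in DSE-treated mice. This was 18.5 points in OVA vs. saline (limma adjusted p = 0.124) and 17.5 in DSE vs. saline (limma adjusted p = 0.0754), at 84 to 146 calls. The window next to it, chr19:23162001-23163000, rose from 53.6% ± 4.14 (SD, n = 3) to 67.4% ± 4.01 (n = 3) and 67.7% ± 4.52 (n = 4), with limma adjusted p = 0.128 and 0.0564. Upstream of Klf9, within the gene model 2410080I02Rik, the window at chr19:23136001-23137000 went from 5.26% to 5.41% in saline to 8.89% to 9.56% in OVA-induced and 7.71% to 10.9% in DSE-treated mice (limma adjusted p = 0.103 and 0.0481).

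**Figure D4:**
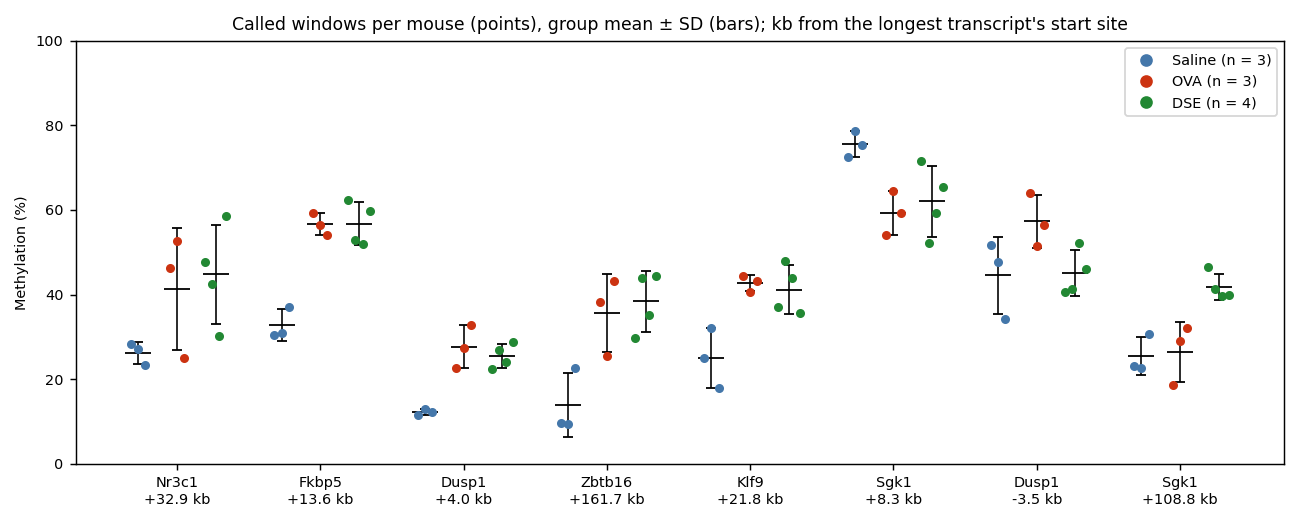
Methylation (%) per mouse (points) with group mean and SD (bars) in 8 called windows, named by gene and by the distance (kb) of the window centre from the start site of the longest transcript. The first 6 are each gene's largest difference in OVA vs. saline, and the last 2 are the Dusp1 window hypo methylated and the Sgk1 window hyper methylated in DSE vs. OVA; only in the last do the 4 DSE mice (39.6% to 46.4%) lie above both other groups.

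Sgk1, a kinase that regulates ion channels such as the epithelial sodium channel, is among the earliest genes glucocorticoids induce. It spans chr10:21882184-21999903 with 6 start sites. The windows over the 15-letter match in its promoter, shown above, were nearly unmethylated. At chr10:21993501-21994500 the values were 0.532% to 0.897% in saline, 0.537% to 0.824% in OVA-induced and 0.434% to 0.999% in DSE-treated mice. The window nearest to the start site of the longest transcript, chr10:21881501-21882500, had 4.99% to 7.64%, 5.18% to 7.33% and 6.16% to 8.32%, with overlap.

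At Sgk1, 7 of 74 windows (9.46%), in 4 regions, were hyper methylated in OVA vs. saline, against 4.75% of all windows. The one with the smallest p lay in the 3′ part, at chr10:21997001-21998000, which overlaps exons and had at least 2051 calls in each mouse. Saline mice had 53.9%, 46.4% and 53.4%, OVA-induced mice 60.8%, 65.8% and 65.0%, and DSE-treated mice 60.7%, 65.7%, 61.2% and 64.1%. The difference was 12.5 points in OVA vs. saline (likelihood ratio adjusted p = 2.58e-50, limma adjusted p = 0.131) and 11.6 in DSE vs. saline (limma adjusted p = 0.0581), and the latter was 9.30 and not called without saline replicate 2. Hypo methylation was found in an intron, 8317 bp downstream of a start site. The window at chr10:21890001-21891000 had 72.5%, 78.7% and 75.3% in saline, 54.0%, 64.4% and 59.2% in OVA-induced and 71.6%, 52.1%, 59.2% and 65.3% in DSE-treated mice. It fell by 16.5 points in OVA vs. saline (limma adjusted p = 0.107) and by 13.5 in DSE vs. saline (limma adjusted p = 0.111), the latter −9.65 and not called without DSE replicate 2.

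The only member window hyper methylated in DSE vs. OVA was at Sgk1, 1222 bp upstream of a start site. At chr10:21990501-21991500, saline mice had 23.0%, 22.7% and 30.7%, OVA-induced mice 18.5%, 28.9% and 32.0%, and DSE-treated mice 46.4%, 41.3%, 39.6% and 39.9%. The 4 DSE-treated mice lay above all 6 others. The difference was 16.0 points in DSE vs. OVA (likelihood ratio adjusted p = 1.5e-22, limma adjusted p = 0.227) and 15.9 in DSE vs. saline (limma adjusted p = 0.0336), while OVA vs. saline gave −0.129.

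Depth moved with this difference. The window is at a border, with group means of 85.2% to 87.2% in the preceding window (chr10:21990001-21991000), which shares 500 bp with it, and 10.8% to 15.6% in the following one (chr10:21991001-21992000). In the preceding window the DSE-treated mice had 336, 223, 312 and 244 calls, against 79, 64 and 123 in saline and 37, 105 and 65 in OVA-induced mice, and methylation there did not differ by more than 3 points between group means. In the called window they had 598 to 743 calls against 427 to 599 and 419 to 531. A window percentage weights its CpGs by their calls, and the part of this depth in the 16.0 points was not tested. A further Sgk1 window, chr10:21979001-21980000, fell by 10.4 points in DSE vs. OVA at 23 to 299 calls per mouse, from 100%, 100% and 95.7% to 85.6%, 95.9%, 88.0% and 88.7% (limma adjusted p = 0.392), and the groups overlapped. The window at chr10:21998001-21999000 also had more calls in DSE-treated mice, 260 to 374 against 192 to 272 and 167 to 246. It had 37.1%, 37.0% and 45.2% in saline, 39%, 54.5% and 45.5% in OVA-induced and 56.4%, 52.3%, 57.3% and 57.5% in DSE-treated mice (15.5 points in DSE vs. saline, limma adjusted p = 0.0347).

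**Figure D5:**
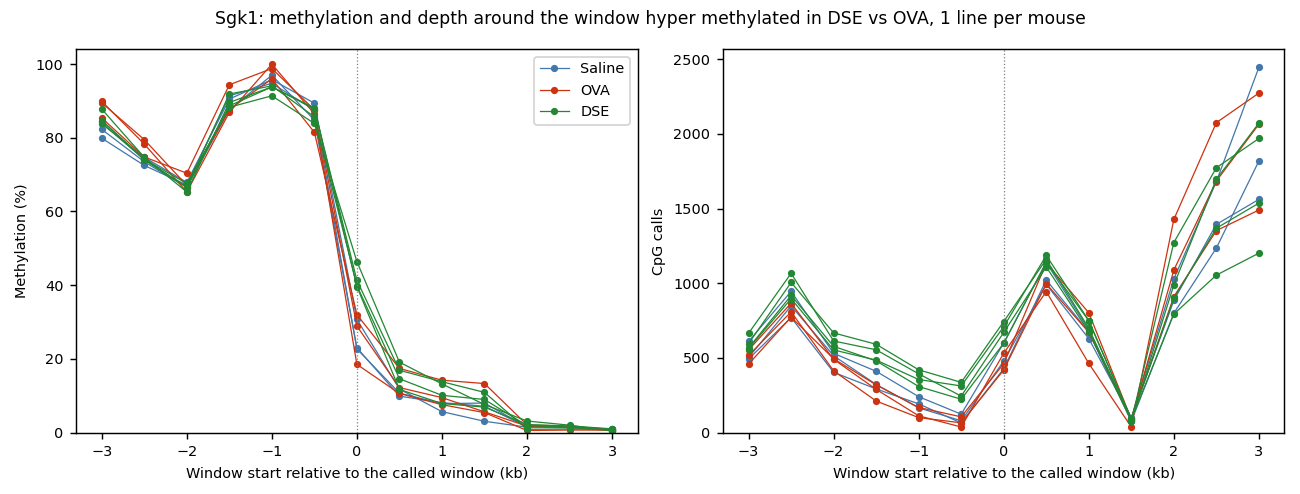
Methylation (%, left) and number of CpG calls (right) of the Sgk1 windows within 3 kb of the window hyper methylated in DSE vs. OVA, by window start relative to it (kb), with 1 line per mouse. At 0 the DSE mice have the highest methylation of the 10, and in the windows up to 1 kb before it they have the most calls.

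The promoter windows of other genes of the pathway gave counts near or under those of all promoter windows. Of 23 chaperone and co-regulator genes, with 162 promoter windows, 0 was hyper and 1 (0.617%) hypo methylated in OVA vs. saline, against 2.89% and 1.73% of all promoter windows. It was the window of Dnajb1, an HSP40 co-chaperone (77.5% ± 2.45 in saline and 65.4% ± 4.29 in OVA-induced mice, SD, n = 3 each, limma adjusted p = 0.122). In DSE vs. OVA 1 window was hyper methylated, that of the cyclophilin Ppid (9.69% ± 5.13, n = 3, and 26.0% ± 6.05, n = 4, limma adjusted p = 0.206), against 0.907% of all promoter windows hyper and 0.398% hypo methylated. In DSE vs. saline 5 of 163 windows (3.07%), in 4 genes, were hyper and 0 hypo methylated, against 3.31% and 2.02%. Of 30 other genes known as glucocorticoid targets, 29 were measured, in 209 windows, with 3 hyper and 3 hypo methylated in OVA vs. saline (1.44% each, under both shares of all promoter windows). The hyper methylated windows were those of Pck1, Per2 and Scnn1a (10.7, 10.3 and 11.1 points), and the hypo methylated ones those of Angptl4 and Map3k6, which fell by 11.0 and 21.8 points, the latter at 34 to 70 calls per mouse. None of these 5 genes' named windows passed limma (limma adjusted p = 0.138, 0.188, 0.173, 0.121 and 0.120 in this order). None of these windows was called in DSE vs. OVA, and in DSE vs. saline 5 (2.39%) were hyper and 3 (1.44%) hypo methylated.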

How the data were processed

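Lung DNA of 3 saline, 3 OVA-induced and 4 DSE-treated (labelled Herb) mice was profiled by SureSelect Methyl-seq, a probe capture followed by bisulfite conversion. The authors used Cutadapt for trimming and Bismark for mapping to mm10 (GRCm38), and counted calls with methylKit. The submitters' processing notes name cutadapt 1.10, Bismark 0.19.0 and methylKit 1.0.0, and the methods of the study name other versions. The deposited values are counts, not normalized: the CpG calls of each mouse in sliding windows (1000 bp long, moved by 500 bp), split into methylated and unmethylated, with at least 10 calls in every mouse. Total calls were 306656737 to 410836272 per mouse. Since most calls are counted in 2 windows and several can come from 1 molecule, intervals cover counting error only.

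From these counts, percentages were computed per mouse with at least 20 calls, and windows with at least 2 such mice per group were compared with a logistic model and its likelihood ratio test (Python 3.11.15, scipy 1.17.1), with Benjamini-Hochberg adjustment over all windows. limma 3.58.1 was run on M-values (pseudocount 1) over all windows, with only the mice of the groups compared. It was also run on gene means over all RefSeq genes with at least 3 windows, with all 10 mice. The tests of single windows (likelihood ratio, F test, replicate block and limma on M-values) were run on simulated data with known changes. The gene means, sequence searches and gene lists were not. The mean chi-square between mice of a group was 2.64 to 3.76, above the sampling noise of a copied library; mice of different groups were not compared in this way.

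The members and gene lists were chosen with earlier results of these data known. Named windows were, per gene, the one nearest to the longest transcript's start site, the called window with the smallest p and that with the largest difference in each comparison, windows passing limma, and those called in opposite directions; of the other pathway genes, up to 10 called in OVA vs. saline. The CpG-island window of Nr3c1, the Hsd11b1 window over a start site, the Sgk1 windows at 21979001, 21990001, 21991001 and 21993501, the upstream Fkbp5 window and Ppid were named after their values were seen. Alternatives were a minimum of 50 calls or none, an F test, limma, unweighted means, 20 points, non-overlapping windows, no flank or 2 kb, a replicate block and each mouse left out. Counts without Dusp1, and limma with the 10-point minimum, were added after the data were seen.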

Additional observations from a re-analysis of the deposited data

Results flagged for a closer look

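Among 54 groups of 4 DSE-treated mice tested (45 named windows and 9 gene means), 4 held a mouse far from the other 3 by Dixon's ratio, where chance flags about 1 in 20 groups. DSE replicate 1 was low at the Fkbp5 windows chr17:28428501-28429500, with 39.3% against 45.4% to 46.6%, and chr17:28429001-28430000, with 42.7% against 49.7% to 50.9%; these overlap and are not 2 independent values. DSE replicate 3 was high at the Per1 start-site window, with 2.57% against 1.65% to 1.78%. DSE replicate 4 was high at the Zbtb16 window chr9:48739501-48740500, with 7.84% against 5.12% to 5.57%. Groups of 3 mice were not tested in this way.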

How the results depend on the processing

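The counts of called member windows rest on how the spread between mice, the size of a difference and the overlap of windows are treated. The F test called 0 hyper and 0 hypo methylated windows in all 3 comparisons. With limma on M-values there were 0 and 0 for OVA vs. saline, 0 and 0 for DSE vs. OVA, and 20 hyper and 5 hypo methylated windows for DSE vs. saline in place of 27 and 14, with no minimum on the difference. With limma and the 10-point minimum, an alternative chosen after seeing the data, there were 15 and 4 for DSE vs. saline and 0 in each direction for the other comparisons. Requiring 20 points left 4 hyper and 0 hypo methylated windows for OVA vs. saline, 0 and 0 for DSE vs. OVA, and 4 and 0 for DSE vs. saline. Windows that do not overlap, of which there are fewer, gave 14 and 5, 0 hyper methylated in DSE vs. OVA, and 12 and 4. Unweighted means gave 1 hypo methylated window in DSE vs. OVA in place of 3. The other settings, among them no minimum of calls, a minimum of 50, both shorter flanks and the members without Dusp1, stayed within 1.5 times the count.

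Leaving out 1 mouse at a time gave 29 to 39 hyper and 7 to 14 hypo methylated windows for OVA vs. saline, 1 to 2 and 1 to 6 for DSE vs. OVA, and 26 to 34 and 10 to 16 for DSE vs. saline. The gene means past the threshold numbered 1 to 3, 0 and 1 to 4 in the same order.

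Gene means of pooled calls gave 1 member past the threshold for OVA vs. saline, 3 for DSE vs. OVA and 6 for DSE vs. saline, where 9.08%, 22.1% and 32.9% of all genes passed. The replicate numbers do not pair the mice (correlation of deviations −0.027 to 0.078 for mice of the same number); with the replicate block, 0 gene means passed in DSE vs. saline in place of 3, with limma adjusted p of 0.0519 for Dusp1, 0.0577 for Klf9 and 0.153 for Hsd11b2. DSE replicate 4, alone in its number, carries no weight in that fit. The block changed no other call. Promoters defined as 2 kb upstream to 500 bases downstream gave 5 hyper methylated windows of the other pathway genes for OVA vs. saline in place of 3, 1 hypo methylated for DSE vs. OVA in place of 0, and 5 in DSE vs. saline in place of 3. The 15-letter GRE was in 3 member windows in place of 24. No result called in the main setting changed sign. Some differences not called there did so with pooled calls, among them the gene means of Nr3c1 and Fkbp5 in DSE vs. OVA. The cause of these changes was not tested.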
